A study of Rattus norvegicus with 24 samples.

Results

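The kidney DNA methylome of CD rats was compared between non-pregnant females (CD-NP) and females at day 18 of pregnancy (CD-P18), using a reduced representation bisulfite sequencing (RRBS) library from each of 3 rats per group. The CpGs described are those with at least 10 reads in each of these 6 libraries. A CpG was counted per strand, and 687953 positions on 597736 CpG dinucleotides met this minimum, of 2227168 positions with at least 10 reads in any of the 12 RRBS libraries of the series.

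The study asked how the maternal kidney adapts to pregnancy in 2 rat strains. CD (Sprague Dawley) rats are outbred and stood for uncomplicated pregnancy, and Brown Norway (BN) rats are inbred and were used as a model of complicated pregnancy, again with 3 non-pregnant (BN-NP) and 3 day 18 (BN-P18) females. All rats were labelled as 2 months old, and the labels name no transgene and no agent. A kidney cross-section holding cortex and medulla of each rat gave both the DNA and the RNA. Each rat is a replicate, so the groups hold 3 different outbred genomes each, and in such whole tissue a change in the share of a cell type and a change within its cells cannot be told apart.

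In mammals DNA methyltransferases add a methyl group to the C of a CpG, and TET enzymes start its removal. Most CpGs of a somatic tissue are methylated, whereas the dense CpG islands at gene starts are mostly not, and differences between cell types lie mainly in sparser regions. In RRBS the DNA is cut at CCGG sites, which favours CpG-rich regions. Bisulfite then turns unmethylated C into a base read as T and leaves methylated C as C. A C-to-T difference in a rat's own genome is therefore read as an unmethylated C, and since the methylation calls hold no genotype, the 2 kinds of difference cannot be told apart at a single CpG. The reads were aligned by the authors to Rnor_6.0, an assembly of the BN strain, and positions below are on that assembly, counted from 1.

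Summed over all listed CpGs, coverage was 21669162 to 36912429 reads in the CD-NP libraries and 34066100 to 43071044 in the CD-P18 libraries. At the 687953 tested CpGs the median coverage was 24, 18 and 16 reads in the CD-NP rats and 29, 18 and 26 reads in the CD-P18 rats. The CpGs whose lowest library held exactly 10 reads numbered 122000 and had mean levels of 34.7% in CD-NP and 34.3% in CD-P18, and the 134029 just outside, with 9 reads, had 33.8% and 33.4%. Mitochondrial CpGs were read as methylated in 0.354 to 0.482% of their reads.

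The overall methylation level of the CD kidney differed little between the groups. The mean over the tested CpGs was 38.9, 38.7 and 38.7% in the 3 CD-NP rats (38.8 ± 0.141, SD, n = 3) and 38.5, 38.3 and 38.5% in the 3 CD-P18 rats (38.4 ± 0.102, SD, n = 3). All CD-P18 rats lay below all CD-NP rats, but the difference, P18 minus NP, was -0.362 percentage points, and the two-sided exact permutation test gave p = 0.1, the smallest value that 3 rats against 3 allow (adjusted p = 0.183 over 11 groups of CpGs). Its sign depended on the set of CpGs used and on their weighting. Over all CpGs with at least 10 reads in each library separately, the means were 39.2, 35.6 and 35.1% in CD-NP and 37.8, 44.3 and 40.3% in CD-P18, a difference of 4.19 points, and weighting each tested CpG by its reads gave 0.506 points.

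Methylation fell steeply with CpG density in both groups. Of the tested CpGs, 48.5% had a pooled level under 10%, 32.7% lay at 10 to 90% and 18.8% lay above 90%. CpGs with no other tested CpG within 100 bases (38475) had a mean of 74.5% in CD-NP and 74.0% in CD-P18, those with 1 to 3 (241554) 65.9 and 65.3%, those with 4 to 9 (238690) 31.0 and 30.6%, and those with 10 or more (169234) 3.02 and 2.91%. Each of these 4 classes was lower in CD-P18 by less than 0.6 points, with no overlap between the rats of the groups and an exact p of 0.1.

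**Figure D1:**
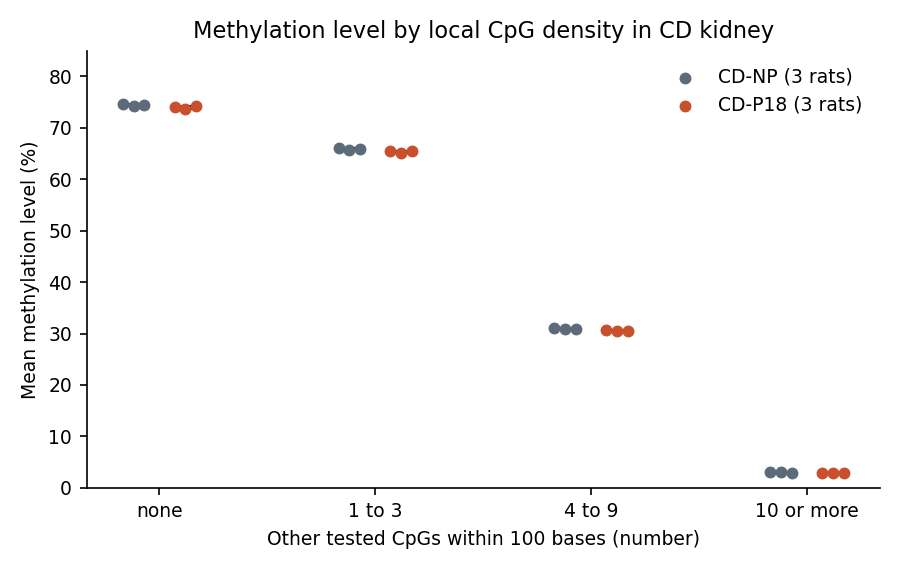
Mean methylation level (%) of the 3 CD-NP and 3 CD-P18 rats in 4 classes of CpG density (number of other tested CpGs within 100 bases), with a point per rat and error bars of 1 SD that are mostly smaller than the points. Levels run from 74.5 and 74.0% for isolated CpGs to 3.02 and 2.91% for the densest class, and the groups nearly coincide in every class.

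The X chromosome departed from this relation, as is known for females, in which the islands of the inactive X carry methylation. Its 2242 densest CpGs had a mean of 28.8% in CD-NP and 27.7% in CD-P18, against 2.68 and 2.57% at the 166992 densest autosomal CpGs. All 12489 X CpGs together had 54.8% in CD-NP (± 0.594, SD, n = 3) and 54.2% in CD-P18 (± 0.413, SD, n = 3), and the rats of the groups overlapped (exact permutation p = 0.2).

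CD rats of the same stage were as far apart as CD rats of different stages. Over the 224770 tested CpGs with a pooled level of 10 to 90%, the mean absolute difference between rats was 10.9 points in the 6 pairs within a group (9.72 to 11.9) and 10.9 points in the 9 pairs between groups (9.87 to 12). The share of these CpGs that differed by more than 50 points between a pair of rats was 0.351% on average within groups and 0.363% between them.

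At single CpGs, 314 of the 687953 tested (0.0456%) passed the call for a differentially methylated CpG (DMC), which was a Benjamini-Hochberg adjusted p under 0.05 in a logistic model of the reads, with its dispersion moderated by limma, and a difference of pooled levels over 10 points. Methylation was higher in CD-P18 at 145 of them (0.0211% of the tested CpGs) and lower at 169 (0.0246%). In the same test 20488 CpGs had an unadjusted p under 0.05, against 34398 that uniform p-values would give. The calls depended on the model. With each rat weighted alike, limma on the arcsine square root of each rat's level called 0 CpGs (37617 at an unadjusted p under 0.05, smallest adjusted p = 0.0513). The logistic model called 0 when each CpG kept its own dispersion (2761) or when reads were thinned to 10 per CpG and library (11248). Leaving out 1 rat at a time gave 273 to 484 DMCs, with the highest count without CD-P18 replicate 3, and 171 to 254 of the 314 were called again. Adjusted p-values given below for single CpGs are from the logistic model unless limma is named. Its dispersion was drawn largely from other CpGs (prior of 60.5 degrees of freedom). Such a p-value therefore gives little weight to the spread between the rats of a group at that CpG.

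The DMCs were few and large, and their size is in part set by the call. Without the 10-point limit the same 314 CpGs had an adjusted p under 0.05 in the logistic model. The median absolute difference was 49.0 points, with extremes of 95.3 points higher and 83.8 points lower, and the smallest was 21.8 points. Differences over 50 points were found at 151 tested CpGs, and 145 of these were DMCs. The median was 51.5 points for the CpGs that rose and -46.5 points for those that fell. At 192 DMCs (87 higher, 105 lower) the 3 CD-P18 rats all lay beyond the 3 CD-NP rats, which held for 5.37% of all tested CpGs and 9.73% of those with a pooled level of 10 to 90%. The median coverage behind a DMC level was 23 reads per rat (10 to 250).

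The largest gain lay on chromosome 18, on both strands of a single CpG. On the minus strand, position 62595206, the level was 0, 0 and 0% in the CD-NP rats and 93.3, 93.3 and 100% in the CD-P18 rats (adjusted p = 1.58e-11). On the plus strand, position 62595205, it was 6.67, 0 and 0% against 91.2, 100 and 90.9% (adjusted p = 2.57e-10). The groups were fully apart on either strand, while the nearest other tested CpG, 38 bases away, stood at 85.7% in CD-NP and changed by 6.51 points.

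The third CpG in this order lay in an exon of Cdh5, which encodes VE-cadherin, the adhesion molecule of endothelial junctions. At chromosome 19, position 1025752, minus strand, its level was 0, 50 and 0% in CD-NP and 100, 100 and 100% in CD-P18 (16.7 ± 28.9 against 100 ± 0, SD, n = 3). The adjusted p was 1.6e-09 in the logistic model and 0.789 with limma. The CpG 10 bases away stood at 96.1% in CD-NP and changed by -1.55 points. An intron of Rpp40, which encodes a subunit of RNase P, held the last of the 10 highest-ranked gains, at chromosome 17, position 29641561, minus strand, with 0% in each CD-NP rat and 39.4, 63.6 and 96.2% in CD-P18 (adjusted p = 7.18e-07).

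The other 6 of the 10 gains that ranked highest lay outside any gene listed in the annotation used here. At 3 of them all CD-NP rats were at 0%: position 74474024 on chromosome 5 (46.6, 37.0 and 57.6% in CD-P18), position 33723335 on chromosome 7 (96.4, 71.4 and 54.8%) and position 75949405 on chromosome 8 (42.4, 86.7 and 70.4%). At position 254275639 on chromosome 2 the CD-NP rats stood at 46.4, 48.3 and 40.6% and the CD-P18 rats all at 100%. The remaining pair, on chromosomes 3 and 12, had 1 CD-NP rat at 0% and the others at 37.8 to 54.2%, against 93.9 to 100% in CD-P18.

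**Figure D2:**
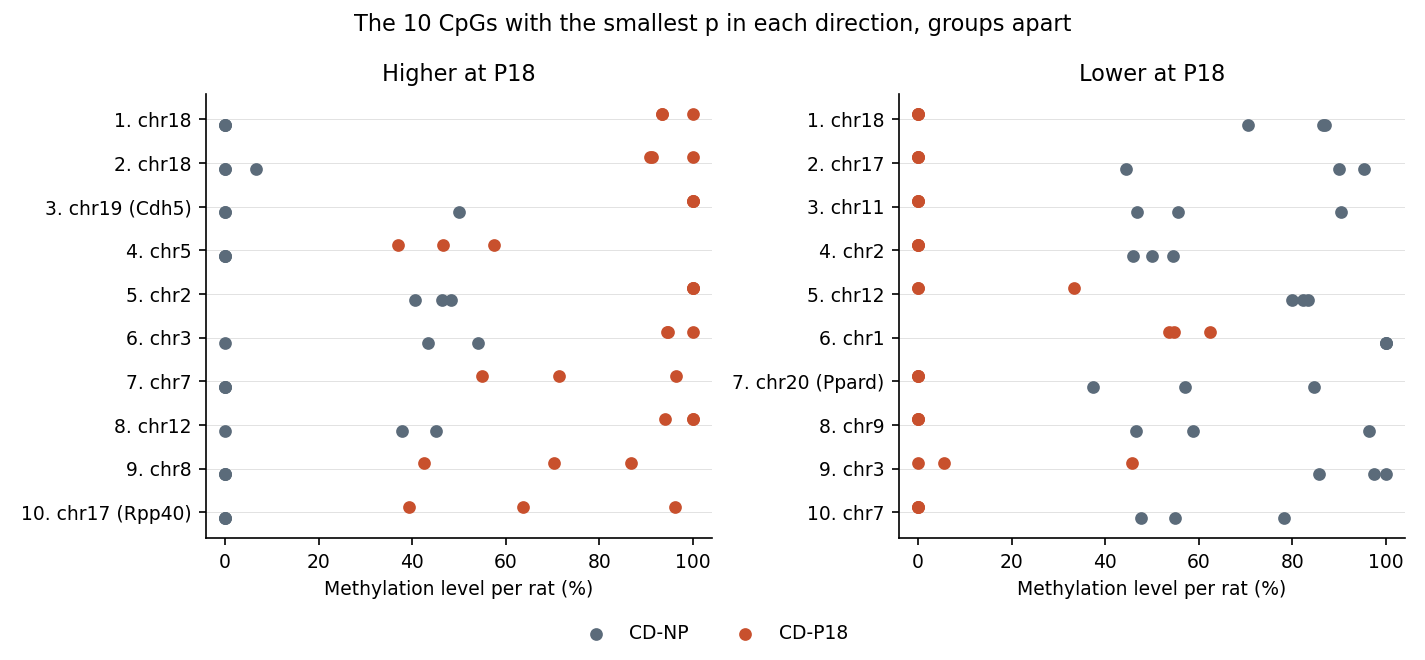
Methylation level (%) of each CD-NP and CD-P18 rat at the 10 CpGs of smallest p among the gains (left) and the losses (right) whose groups do not overlap, listed by rank and chromosome with the gene where the annotation gives one. Many rats sit at 0%, near 50% or at 100%, as at the top gain, where CD-NP rats are at 0% and CD-P18 rats at 93.3 to 100%.

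Among the losses, the smallest p belonged to a CpG in a CpG island shore on chromosome 18, position 63128531, minus strand. Its level was 86.5, 87.0 and 70.6% in CD-NP and 0, 0 and 0% in CD-P18 (81.3 ± 9.32 against 0, SD, n = 3; adjusted p = 6.91e-11). The CpG 11 bases away stood at 94.8% in CD-NP and changed by -4.81 points, so the loss at this CpG was not shared by its nearest neighbour. In an intron of Ppard, which encodes a fatty acid-sensing nuclear receptor, the minus strand of a CpG (chromosome 20, position 7843648) had 57.1, 84.6 and 37.5% in CD-NP and 0% in all CD-P18 rats (adjusted p = 1.44e-07), and its plus strand fell by 53.1 points.

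In 7 of the 10 losses that ranked highest all CD-P18 rats were at 0%. They included position 251922197 on chromosome 2 (46, 54.5 and 50% in CD-NP), position 25199139 on chromosome 17 (44.4, 90 and 95.2%) and position 31225226 on chromosome 11 (46.9, 55.6 and 90.5%). The exceptions were position 148428189 on chromosome 1, in a CpG island, which went from 100% in each CD-NP rat to 54.7, 62.5 and 53.6%, and positions 43719501 on chromosome 12 and 5902917 on chromosome 3, where 1 CD-P18 rat kept 33.3 and 45.8%. At position 31225226 the nearest tested CpG, 10 bases away, moved in the opposite direction, by 24.5 points.

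Single rats at the DMCs stood mostly at a few levels. Of all rat values at DMCs, 33.7% were at or under 10%, 32.0% at 30 to 70% and 19.1% at or over 90%, which left 15.3% elsewhere. Of the rat values at all tested CpGs with a pooled level of 10 to 90%, these shares were 3.13, 36.7, 11.8 and 48.5%. All 6 rats lay within these bands at 145 DMCs (46.2%) and at 11.5% of the tested CpGs with a pooled level of 10 to 90%. All 3 rats of a group were at or under 10% at 119 DMCs, of which 53 rose from CD-NP rats at that level and 66 fell to it in CD-P18. These shares describe CpGs chosen by the size and error of their difference and carry no test.

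**Figure D3:**
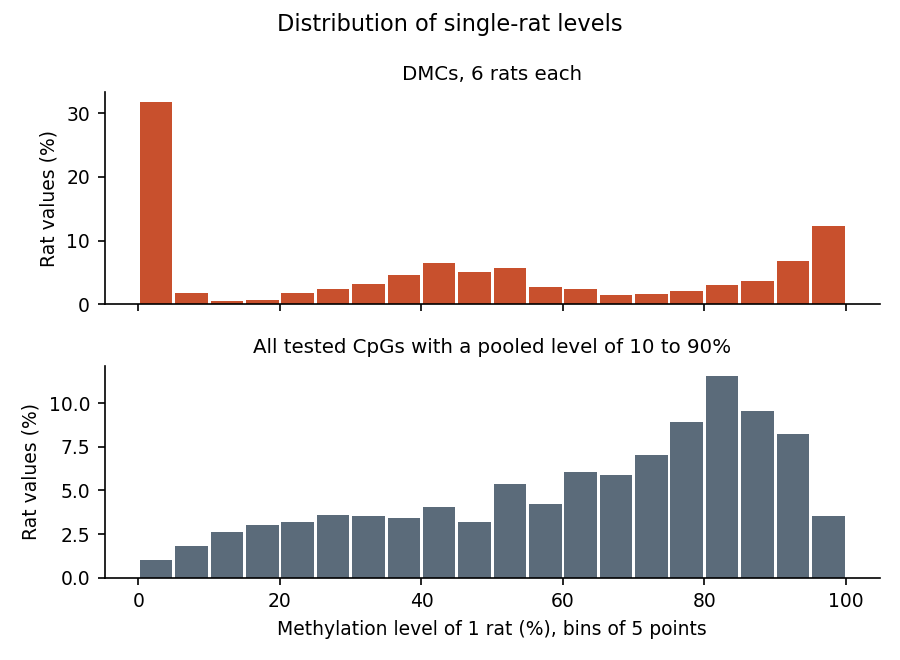
Share (%) of single-rat methylation levels in bins of 5 points, for the 314 DMCs (top) and for all tested CpGs with a pooled level of 10 to 90% (bottom). The DMC values pile up at or near 0%, around 50% and near 100% (33.7, 32.0 and 19.1% in the bands of up to 10, 30 to 70 and from 90%), while the values of the other CpGs rise gradually towards a maximum between 80 and 85%.

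The strands of a DMC moved together and its neighbours mostly stayed. Where the opposite strand of the same CpG was tested (81 DMCs), it had the same sign in 81 and changed by more than 10 points in 76, with a median of 44.3 points against 46.3 at the DMCs. The opposite strand was called as well in 50 cases. Of 290 DMCs with another tested CpG dinucleotide within 50 bases, at a median of 12 bases, the nearest differed by at most 5 points in 163 and by at most 10 in 231. It changed by more than 10 points with the same sign in 47 (16.2%) and with the opposite sign in 12, where 6.55% of all tested CpGs and 18.8% of those with a pooled level of 10 to 90% changed by more than 10 points in either direction. The median change was 4.06 points at the nearest CpG against 48.9 at these DMCs, and the nearest CpG stood above 75% in CD-NP at 231 of the 290.

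**Figure D4:**
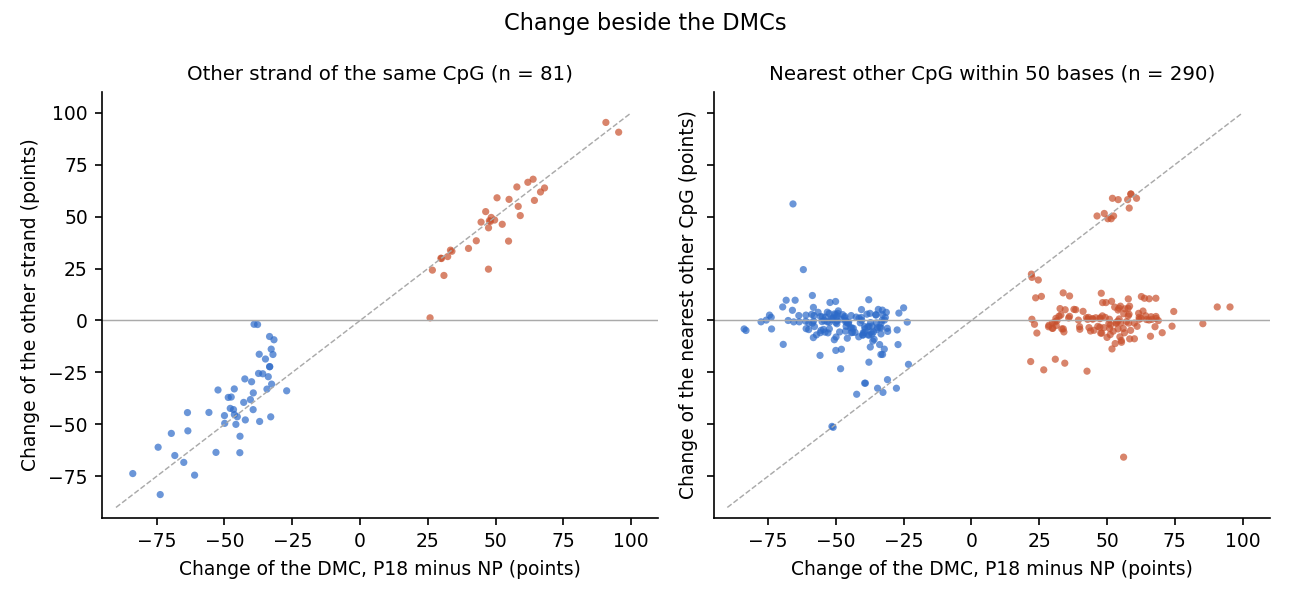
Change at the opposite strand of the same CpG (left, n = 81) and at the nearest other tested CpG within 50 bases (right, n = 290) against the change at the DMC, all in percentage points, P18 minus NP, with the dashed line marking equal change. Opposite strands lie along the dashed line, whereas most nearest CpGs lie near 0, with a median absolute change of 4.06 points.

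The 314 DMCs formed 289 CpG dinucleotides, of which 260 had no other DMC within 100 bases and 29 fell into 9 groups. The largest group lay on chromosome 4, from 112647927 to 112648059 (133 bases), 1 to 5 kb upstream of LOC100911370. All 12 tested positions in it, on 11 dinucleotides, were DMCs that rose. The mean level over them was 15.8, 10.4 and 48.5% in the CD-NP rats and 45.0, 89.1 and 94.7% in the CD-P18 rats (24.9 ± 20.6 against 76.3 ± 27.2, SD, n = 3). The third CD-NP rat stood above the first CD-P18 rat, so the groups overlapped in this mean, although they were apart at 5 of the 12 positions. The 6 BN rats had 8.46 to 15.9% there.

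**Figure D5:**
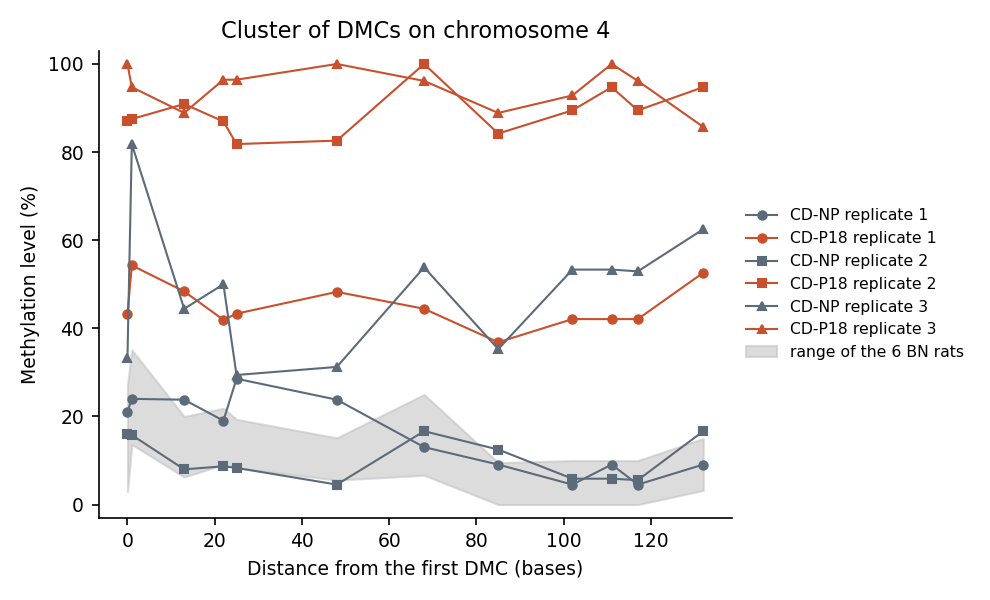
Methylation level (%) of each CD rat at the 12 tested positions of the chromosome 4 group of DMCs, by distance in bases from the first, with the range of the 6 BN rats shaded. CD-P18 replicates 2 and 3 lie above 80% throughout, CD-P18 replicate 1 and CD-NP replicate 3 lie mostly in between, and CD-NP replicates 1 and 2 lie near the BN rats.

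Smaller groups of DMCs fell on chromosomes 14 and 9. On chromosome 14, from 107112072 to 107112117, the mean over 4 positions was 74.3, 82.7 and 67.9% in CD-NP and 57.3, 16.5 and 12.1% in CD-P18. The CD-P18 rats were all lower, and the median coverage there was 162 to 198 reads in the 3 CD-NP rats and CD-P18 replicate 1 but 26 and 51 reads in the other CD-P18 rats. On chromosome 9, from 7466948 to 7466964, the mean over 5 positions went from 55.7, 51.8 and 36.4% to 22.7, 11.3 and 30.9%, with no overlap, and the 28 tested positions within 100 bases went from 36.8% to 27.6%. Neighbouring DMCs could also oppose each other: on chromosome 7 the CpG at 41553727 rose by 56.1 points and the one at 41553732 fell by 65.8 points.

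The share of DMCs differed between classes of CpG density, given here as a description without a test. DMCs made up 0.0208% of the isolated CpGs, 0.0758% of those with 1 to 3 others within 100 bases, 0.0465% of those with 4 to 9 and 0.00709% (12 DMCs) of the densest class. By chromosome the share ran from 0.0180% on chromosome 7 (8 DMCs) to 0.0841% on chromosome 4 (31) among the autosomes, and 1 of the 12489 X CpGs was a DMC. All 314 had a pooled level of 10 to 90%.

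Summing reads over windows of 1000 bases asked whether several CpGs of a region moved together. Of 69807 windows with at least 3 tested CpGs, 2 were called (0.00287%), and 86.9% differed by at most 5 points. The window at chromosome 18, 62595001 to 62596000, went from 61.7, 63.3 and 59.1% to 91.2, 92.1 and 93.9% (31.0 points, adjusted p = 0.00398). It holds the strongest gain described above, and without its 2 DMCs the change was 0.945 points. The window at chromosome 12, 43719001 to 43720000, went from 87.1, 88.5 and 89.5% to 37.4, 60.2 and 40.5% (-43.7 points, adjusted p = 0.00787), and without its DMCs it changed by -10.1 points. At an unadjusted p under 0.05 there were 2219 windows, against 3490 that uniform p-values would give, and limma on the window levels called 0 (3905 at an unadjusted p under 0.05). The count rose to 4 without CD-NP replicate 3, to 7 without CD-P18 replicate 1 and to 6 without CD-P18 replicate 3, and fell to 1 without CD-NP replicate 1 or 2.

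Gene positions came from the study's own annotation of CpGs on Rnor_6.0, which covers the intervals it lists and leans towards CpGs the study had selected, so it is not a background for shares. Of the 314 DMCs, 102 lay in a listed feature and 83 in or near 57 genes (48 higher, 35 lower). Of these positions 57 lay in introns, 12 in exons, 3 in 3′ UTRs, 15 at 1 to 5 kb upstream of a gene, and 0 in promoters or 5′ UTRs, with a position counted under each feature that holds it. CpG islands held 10, their shores 8 and their shelves 10.

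The genes below are examples from these 57, most of them chosen after their values were seen, and their grouping by function was not tested. Rxfp1, the receptor of the pregnancy hormone relaxin, had an intronic CpG (chromosome 2, position 178509569, minus strand) at 0, 0 and 13.6% in CD-NP and 20.6, 79.3 and 74.5% in CD-P18 (4.55 ± 7.87 against 58.1 ± 32.6, SD, n = 3; adjusted p = 5.57e-05). Every CD-P18 rat was higher, with a wide spread among them. Met, the receptor of hepatocyte growth factor, had an exonic CpG (chromosome 4, position 44796953, plus strand) at 0% in the CD-NP rats and 44.4, 100 and 37.5% in the CD-P18 rats (adjusted p = 0.000314). Gains were also called in an intron of Tgfbr3, a TGF-beta co-receptor, and upstream of Fgf3, a fibroblast growth factor (57.9 points), and a loss in an intron of Epha4, an ephrin receptor (-46.7 points).

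Other examples, chosen after their values were seen, encode transporters or a regulator of transport. An intronic CpG of Nedd4l, the ubiquitin ligase that limits the epithelial sodium channel (chromosome 18, position 60638547, minus strand), had 58.3, 100 and 100% in CD-NP and 48, 0 and 0% in CD-P18 (adjusted p = 0.00113). An intron of Slc13a3, a sodium-coupled dicarboxylate transporter of the proximal tubule, lost 48.6 points on one strand of a CpG and 37.0 points on the other. Slco2a1, the prostaglandin transporter, had an intronic CpG that rose (position 111565909 on chromosome 8, from 0, 58.3 and 41.2% to 91.7, 93.8 and 56.5%) and, 23 bases away, one that fell (position 111565886, from 61.1, 34.8 and 43.8% to 0, 0 and 25%). The signs were opposite although both CpGs lay in the same gene.

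Kcnj8 and Abcc9 encode the pore and the sulfonylurea-binding subunit of the vascular ATP-sensitive potassium channel and are neighbours on chromosome 4. A CpG 1 to 5 kb upstream of Kcnj8 (position 176793745, minus strand) stood at 0% in all CD-NP rats and at 0, 91.7 and 100% in CD-P18, and one in an intron of Abcc9 (position 176824337, minus strand) at 3.23, 0 and 0% and at 2.86, 83.3 and 79.2%. The same CD-P18 rats, replicates 2 and 3, were high at both CpGs while replicate 1 stayed at the level of the CD-NP rats, so the groups overlapped at both (adjusted p = 0.043 and 0.0148).

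Losses were called in exons of enzyme genes. Gulo, which makes the last step of vitamin C synthesis, had an exonic CpG (chromosome 15, position 42672134, minus strand) at 61.9, 37.5 and 69.2% in CD-NP and at 0% in each CD-P18 rat (adjusted p = 4.01e-05). Hdc, the enzyme that makes histamine, had one on chromosome 3 whose minus strand (position 119058251) went from 47.2, 34.4 and 66.7% to 0, 0 and 0% (adjusted p = 3.42e-06) and whose plus strand lost 50 points. The groups were apart at both genes.

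DMCs were also called in genes of cell adhesion, polarity and signalling. Pard6g, a cell polarity protein, had an exonic CpG in a CpG island (chromosome 18, position 76627231, plus strand) at 97.0, 94.7 and 93.8% in CD-NP and at 48.4, 48.1 and 29.2% in CD-P18 (95.2 ± 1.65 against 41.9 ± 11, SD, n = 3; adjusted p = 1.99e-05). Itga8, the integrin alpha 8 chain needed for kidney development, lost 68.2 points at an intronic CpG, and Vav2, a guanine nucleotide exchange factor, 77.6 points. Traf3, an adaptor of innate immune receptors, gained 74.6 points at a CpG in its 3′ UTR, and Prkcb, protein kinase C beta, carried both a gain of 57.2 points and a loss of 48.6 points in its introns.

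BN rats had the same assay, and 206 of the CD DMCs had at least 10 reads in all 6 BN libraries. At these CpGs the BN rats were mostly alike and methylated: all 6 were at or above 80% at 111 (53.9%), against 13.1% of the 154717 such CpGs with a pooled CD level of 10 to 90%, and all 6 were at or under 20% at 11 (5.34%, against 2.48%). The median range over the 6 BN rats was 13.7 points, against 83.7 points over the 6 CD rats at the same CpGs (20.5 and 22.3 points at the CpGs of middle CD level). The CD range is large by the choice of the DMCs, and within the CD groups the median range was 29.9 points in CD-NP and 30.1 points in CD-P18. The change in BN had the sign of the CD change at 111 of the 206 and stayed within 10 points at 188, against 77508 and 130705 of the 154717 CpGs of middle CD level.

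In BN, 1 of 898904 CpGs was called between day 18 and non-pregnant rats (0.000111%), and 0 of the 206 CD DMCs (33552 BN CpGs had an unadjusted p under 0.05 in the limma-moderated logistic model, and limma on levels was not run for BN). The difference between the CD and the BN change was tested at the 404069 CpGs with 10 reads in all 12 rats, and 21 were called (0.0052%), of which 20 were CD DMCs. Both calls use the same CD libraries, so this overlap carries no test. At the chromosome 18 loss, position 63128531, the 3 BN-NP rats had 50, 57.1 and 59.5% and the BN-P18 rats 63.6, 50 and 83.3%, and the change in BN exceeded that in CD by 91.6 points (adjusted p = 2.74e-07). At the Rxfp1 CpG the 6 BN rats had 43.9 to 73.8%, and the changes differed as well (adjusted p = 0.000399). At the strongest gain, position 62595206 on chromosome 18, the BN rats had 85 to 100% and the difference between the changes was not called (adjusted p = 0.99). The interaction is tested on the log-odds scale of the logistic model, not in points. With the BN rats this near to 100%, the result does not show that the changes were alike in points. With limma on levels 0 CpGs were called (26450 at an unadjusted p under 0.05, smallest adjusted p = 0.0548), and leaving out 1 of the 12 rats gave 8 to 77 calls, from 35 to 77 without a CD rat and from 8 to 15 without a BN rat.

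RNA of the same rats was available as counts, with 8867274 to 11879451 reads on genes per CD rat. In the whole table edgeR called 669 of 14212 genes in CD (4.71%; 364 higher, 2.56%, and 305 lower, 2.15%) at an adjusted p below 0.1 together with the minimum fold given in the methods. Symbols could be given to 2891 tested genes, which lean towards changed genes since 21.5% of them were called. Of the 57 genes at DMCs, 12 had an RNA value and 1 was called, with a median log2 fold change of -0.18. The median was -0.01 over all 14212 tested genes, with or without a symbol, so these medians are of unlike sets.

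The called gene was Slco2a1, which was 118, 117 and 110 CPM (reads on the gene scaled to library size) in CD-NP and 79.9, 75.5 and 107 CPM in CD-P18. All CD-P18 rats were lower, by -0.39 on the log2 scale (SE 0.11; edgeR adjusted p = 0.0717), and the call was lost in 5 of the 6 fits that left out 1 CD rat. Cdh5, with the exonic CpG that rose by 85.3 points, had 75.1, 65.9 and 69.5 CPM in CD-NP and 60.1, 67.3 and 59.2 CPM in CD-P18 (log2 fold change -0.17, edgeR adjusted p = 0.295), with overlapping groups. Vav2 changed by -0.22 on the log2 scale (edgeR adjusted p = 0.102) and Tgfbr3 by 0.23 (edgeR adjusted p = 0.293).

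Enzymes that write, erase or feed DNA methylation were described from a list of 20 genes, of which 4 had a value, 1 was called higher and 2 lower. Tet2, a dioxygenase that oxidises methylated C, had 384, 278 and 369 CPM in CD-NP and 637, 549 and 617 CPM in CD-P18. It rose by 0.81 on the log2 scale (SE 0.17; edgeR adjusted p = 0.0219), with the groups apart and the call kept without any CD rat in turn. Bhmt, which remethylates homocysteine from betaine, had 39.2, 29.2 and 26 CPM in CD-NP and 19.2, 16.6 and 7.44 CPM in CD-P18, and fell by 1.12 on the log2 scale (SE 0.26; edgeR adjusted p = 0.0351). Ahcy, which clears the product of methyl transfer, did not pass the test (0.13, edgeR adjusted p = 0.682).

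Other lists set beside the methylome had few members with DMCs: of their 143 genes together with the first list, Rxfp1 was the one at an annotated DMC, and it had no RNA value. The list counts below stand beside 21.5% called among all genes with a symbol. A list gene had a value only if it was tested and its symbol was paired, so a gene without a value may still have reads. The lists were chosen with earlier results of these data known, so their counts carry no test. Of the interferon genes 19 of 20 had a value and all 19 were called higher (median log2 fold change 1.30). They include Irf7, a transcription factor of the response (1.92, edgeR adjusted p = 0.00715). The paper names several of these genes as raised by pregnancy in the same libraries, so the choice of the list favoured this share. Of the clock genes 9 of 19 had a value, 5 called higher and 3 lower (median 0.45), with Nr1d1, a repressor of the clock, at -1.62. Salt, water and vitamin D genes had 13 of 25 with a value, with 1 called higher (Slc9a3, a proximal sodium-proton exchanger, 0.34) and 3 lower (median -0.04). Among imprinted genes 3 of 25 had a value (median -0.20) and 1 was called lower (Inpp5f, -0.47). Of 14 pregnancy hormone receptors 6 had a value (median 0.06) and of 20 kidney transcription factors 2 (median -0.28). In either list 0 were called by edgeR (0 and 2 genes at an unadjusted p under 0.05).

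The make-up of the cross-sections was read from marker genes, of which 10 of 32 had a value and 5 were called. This stands beside 21.5% called among all genes with a symbol, which lean towards changed genes. The podocyte marker Nphs1 (nephrin) was lower in CD-P18, by -0.58 on the log2 scale. The proximal tubule phosphate transporter Slc34a1 (-0.47) and the distal tubule chloride transporter Slc12a3 (-0.44) were lower too. The other proximal tubule markers with a value, Slc5a2 (-0.10, edgeR adjusted p = 0.789) and Slc22a6 (0.11, edgeR adjusted p = 0.765), did not pass the test. The macrophage marker Cd68 was higher (0.55), and the leukocyte marker Ptprc did not pass the test (-0.13, edgeR adjusted p = 0.669). The 3 proximal tubule markers with a value summed to 2866 to 3676 CPM in CD-NP and 2129 to 2754 CPM in CD-P18, most of it from Slc34a1. The 2 immune markers with a value summed to 46.1 to 54.0 CPM in CD-NP and 44.7 to 57.3 CPM in CD-P18. No marker of thick limb, endothelium, smooth muscle, fat or adrenal tissue had a value. A value needed a paired symbol, so this does not show that these genes lacked reads. The part of cell composition in the methylation differences was not tested.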

How the data were processed

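RRBS libraries of the kidney cross-sections (3 rats per group) were trimmed by the authors with Trim Galore 0.4.5, de-duplicated by molecular tags and aligned to Rnor_6.0 with Bismark. Per library the authors deposited a list with, for each CpG and strand, a read count (coverage) and the methylated percent of those reads, with a lowest coverage of 5 reads. RNA-seq was deposited by the authors as raw counts per Ensembl gene (STAR 2.5.2, HTSeq 0.6.1). Of the entries per CD library, 72.5 to 75.6% were not assigned to a gene by the authors' counting and were left out. Error from reads covers counting error only.

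Methylated reads were recovered as coverage times percent. CpGs with at least 10 reads in the 6 CD libraries were tested with a quasi-binomial logistic model in R 4.3.3, with the dispersion moderated by squeezeVar of limma 3.58.1 (prior from CpGs pooled at 10 to 90% methylation, lowest dispersion 1). A DMC needed a p below 0.05 after Benjamini-Hochberg adjustment over all tested CpGs and a pooled difference over 10 points. The same model was fitted to windows of 1000 bases with at least 3 CpGs, to the BN rats and, with an interaction of stage and strain, to CpGs covered in all 12 libraries. The interaction was tested on the log-odds scale, whereas its size is given in percentage points. Mean levels were compared by exact permutation tests. RNA was tested with edgeR 4.0.16 (TMM, quasi-likelihood) over the 12 RNA libraries, and a gene was called at an adjusted p below 0.1 with at least a 1.25-fold change. The CpG comparison of the CD groups and the RNA test were also run on simulated reads with known changes. The window, interaction and permutation tests were not simulated. All simulated CpGs had the same setting for the spread between rats. The simulation therefore does not check the calls where rats of a group lie far apart, as at many DMCs.

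The CpGs described singly are the 10 DMCs of smallest p in each direction whose groups do not overlap, and all called windows are given. Of the list and marker genes called in RNA, examples are named, and some are not reported here. The groups of DMCs on chromosomes 4, 9 and 14, and the genes at DMCs other than Cdh5, Rpp40, Ppard and Rxfp1, were chosen after their values were seen. Members and lists were chosen with earlier results of these data known. Symbols were paired with Ensembl identifiers by matching fold changes and mean levels of the study's gene tables to the same comparisons of the counts, within 0.004 on the log2 scale (3018 of 3064 symbols). When the fold changes were given the wrong sign, 2.64% of symbols still matched. Columns of the authors' own comparisons hold log2 fold changes and p-values, and served this pairing alone. Alternatives covered coverage minimums, dispersion, limma 3.58.1, DESeq2 1.42.0 for RNA, window size, strands, a replicate block and leaving out each rat. For the CD CpGs and windows, limma was run on arcsine square root levels. Sequences around the CpGs and promoter tests were not used here, as no Rnor_6.0 genome or gene annotation was at hand.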

Additional observations from a re-analysis of the deposited data

Results flagged for a closer look

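At 6 of the 16 CpGs described singly that had 10 reads in all 12 libraries, the day 18 change in CD differed from that in BN by the limma-moderated interaction test, with differences given as the BN change minus the CD change in percentage points. Over all 404069 CpGs so tested 21 were called (0.0052%). The 16 were chosen by their change in the same CD libraries, which favours a difference from BN. Among the losses in CD these were position 63128531 on chromosome 18 (91.6 points, adjusted p = 2.74e-07), position 25199139 on chromosome 17 (78.8 points, adjusted p = 9.72e-05) and position 31225226 on chromosome 11 (72.8 points, adjusted p = 6.16e-07). At these 3 CpGs every BN rat of either stage was at or above 50%. Among the gains they were position 74474024 on chromosome 5 (-52.9 points, adjusted p = 1.55e-05), position 165894645 on chromosome 3 (-74.0 points, adjusted p = 0.0197) and position 75949405 on chromosome 8 (-62.7 points, adjusted p = 0.00166). The chromosome 5 CpG was at 0% in the 3 CD-NP rats and at 66.7 to 88% in the 6 BN rats. With limma on levels none of the 404069 CpGs tested for a strain difference was called (0, with 26450 at an unadjusted p under 0.05 and a smallest adjusted p of 0.0548).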

How the results depend on the processing

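The count of DMCs (314 of 687953 tested CpGs) changed with the CpGs tested. It was 7 of 57706 with at least 20 reads, 718 of 1407729 with at least 5 and 195 of 404069 among CpGs covered in all 12 libraries. Over the same 687953 CpGs it was 989 without overdispersion and 0 with each CpG's own dispersion, with limma on levels or with thinned reads. An adjusted p under 0.01 and over 25 points without overdispersion, an alternative chosen after seeing the data, gave 589. Leaving out a rat gave 273 to 484. Another difference threshold, rat means, summed strands and a limit on high coverage gave 273 to 325. Windows called (2) numbered 1 at 500 bases, 1 with at least 5 CpGs, 0 with at least 20 reads, 689 without overdispersion, 0 with limma and 1 to 7 without a rat. Calls of the strain difference (21) were 171 without overdispersion, 1 with at least 20 reads, 0 with limma, chosen after seeing the data, and 8 to 77 without a rat. The mean difference (-0.362 points) turned to 4.19 over each library's own CpGs and to 0.506 when weighted by reads, and was -0.422 to -0.285 without a rat. The RNA count at DMC genes (1) was 0 to 1 without a rat. The replicate numbers did not pair the rats (correlations of same-numbered deviations -0.0169 to 0.0191 in RRBS), and with the replicate block there were 378 DMCs (261 of the 314), 4 windows and 69 strain differences, while the mean difference stayed -0.362. The 20 CpGs described singly kept their call in all 120 fits without 1 rat and in 180 of 240 fits under other alternatives, and lost it in the 60 with limma, own dispersion or thinned reads. Of these 20 CpGs, 4 could be tested with at least 20 reads and 16 among CpGs covered in all 12 libraries. The other difference threshold and rat means use the same p-values, and a fit without overdispersion can only lower p. Calls kept under those alternatives carry no support. These 20 CpGs were chosen by smallest p and groups apart, which favours keeping the call. Of all 314 DMCs, 171 to 254 were called again without 1 rat. All 314 were called without overdispersion, which was fixed in advance. The causes of these shifts were not tested. At a median of 16 to 29 reads per rat, no difference under 21.8 points was called at a CpG. Promoters were not run.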

Other observations

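A few other genes at DMCs had groups that did not overlap, described after their values were seen. Zc3h6, a zinc finger gene, gained on both strands of an intronic CpG on chromosome 3 (position 121547677, from 46.2, 0 and 33.3% to 100, 81.8 and 100%). Ndfip2, an adaptor of the ubiquitin ligase family to which Nedd4l belongs, lost on both strands of an intronic CpG on chromosome 15 (position 89443372, from 97.6, 88.2 and 53.8% to 0, 42.9 and 0%). Tdrd1, a gene of the germline small RNA pathway, rose at an intronic CpG on chromosome 1 (position 277670100) from 36.8, 31.2 and 45.5% to 91.7, 100 and 94.4%. Bysl, a ribosome assembly factor, fell at an exonic CpG on chromosome 9 (position 15402712) from 45, 50 and 100% to 4.76, 0 and 0%.

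Although all rats were female, 15 CpG positions on chromosome Y had at least 10 reads in each CD library, with mean levels of 76.7% in CD-NP and 77.3% in CD-P18.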
